A study of Mus musculus with 8 samples.

Results

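The replication-dependent histone genes encode the bulk histones that package newly made DNA. They were taken as every protein-coding gene of the mouse GENCODE annotation (release M21, build mm10) whose symbol begins with Hist1h, Hist2h, Hist3h or Hist4h. This gave 67 of 21951 protein-coding genes, namely 6 for the linker histone H1, 18 for H2A, 18 for H2B, 12 for H3 and 13 for H4. Peaks of RNA bound by 2 proteins, MBD5 and MBD6, were assigned to a gene when they overlapped it by 1 bp or more on the same strand.

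The peaks came from CLIP-seq, in which RNA crosslinked to a protein is immunoprecipitated and sequenced, of mouse embryonic stem cells (mESCs), with 2 Flag-MBD5 and 2 Flag-MBD6 libraries. All cells were wild-type mESCs into which the human coding sequence of MBD5 or MBD6 had been inserted with a 3XFlag tag by lentivirus, so both proteins were overexpressed and neither was the cells' own. The samples were labelled with embryos as tissue and mESC as cell line. The sample characteristics and the study's methods give a Flag antibody, whereas the extraction protocol gives an MBD6 antibody. Digested inputs of both lines were not used here.

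Histones are the protein core of chromatin. Pairs of H2A, H2B, H3 and H4 form the nucleosome around which DNA is wrapped, and H1 binds the DNA between nucleosomes. The replication-dependent genes lie in clusters, are transcribed mainly while DNA is copied, and mostly lack introns, and their mRNAs end in a conserved stem-loop in place of a poly(A) tail. MBD5 and MBD6 carry a domain related to methyl-CpG binding domains and are known as partners of the PR-DUB complex, which removes ubiquitin from histone H2A. Of the histone genes, 62 had 1 exon in all annotated transcripts. All copies of a core histone encode nearly the same protein, so that a short read often matches several of them.

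A peak here is a stretch of the genome where extended reads stood above the local background. Each peak has a deposited fold enrichment. It was taken as the number of reads at the highest point, the summit, plus 1, over the background rate plus 1. It therefore lies below the plain ratio of reads to background, most of all where the background is low. The reads at the summit were solved from the deposited values. Read totals were estimated at 478796, 500149, 983928 and 1111748, and the lists held 5362, 5388, 9218 and 9587 peaks. Here and wherever 4 values stand in a row, they are Flag-MBD5 replicates 1 and 2 followed by Flag-MBD6 replicates 1 and 2. Reads at shared sites differed between the libraries of a protein by less than sampling noise (chi-square per site 0.592 and 0.609 over 2677 sites with a mean of 20 reads or more), whereas pairs of different proteins gave 4.27 to 5.62. Each protein was therefore counted as 1 sample. No test over libraries was made, values are given for each library, and all intervals cover counting error only. Of 12 stem cell markers, 10 had a peak in at least 1 library, against 19.5% of all protein-coding genes. Sox2, Esrrb, Zfp42, Dppa4, L1td1 and Dnmt3l had one in all 4 libraries, as did 7.82% of all protein-coding genes. Lin28a and Utf1 had none.

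The sequences at which histone peaks began are shown first, because they show how much of a peak's first bases other copies hold. RNase T1, used to trim the RNA, cuts after G. In 12 places inside annotated transcripts the 5′ end of a peak fell on the same base in 2 or more libraries, and the first 30 nt of each are given 5′ to 3′ from the GENCODE transcripts. The peaks of Hist2h2bb also shared 5′ ends between libraries, but upstream of its annotated transcript, so no sequence is shown for them. Capitals mark the lysine codons of the reading frame (AAG or AAA).
Hist1h1a (chr13:23763811-23763840, plus strand): ctcctcggAAGAAGcccgcgggaccttcgg
Hist1h1b (chr13:21780123-21780152, minus strand): acccctAAAAAGcctAAGAAGactgcgggg
Hist1h1e (chr13:23622051-23622080, minus strand): AAGgctgcggggacagccaccgccAAGAAG
Hist1h2ac (chr13:23683513-23683542, minus strand): AAGgccAAGgggAAAtaagcaacagaatct
Hist1h2an (chr13:21786849-21786878, minus strand): ccgtactgctgccgAAGAAGaccgagagcc
Hist2h2aa1 (chr3:96245847-96245876, plus strand): caacgacgaggagctcaacAAGctgctggg
Hist2h2ac (chr3:96220604-96220633, minus strand): cccgcgacaacAAGAAGacgcgcatcatcc
Hist3h2a (chr11:58954926-58954955, plus strand): cctggaattggctggtaatgcggcccgcga
Hist1h2bc (chr13:23684222-23684251, plus strand): aaatccgaagatgcctgagcctgcgAAGtc
Hist1h2be (chr13:23585935-23585964, minus strand): atctgaagatgcctgagccagccAAGtccg
Hist1h2bq (chr13:21810106-21810135, minus strand): AAGggctccAAGAAGgccgtcaccAAGgcc
Hist1h2br (chr13:21833804-21833833, plus strand): AAGAAGggctccAAGAAGgccgtcaccAAG

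Of these 12 windows, 9 followed a G in the mRNA and 11 held a lysine codon. The base was shared by 3 libraries in Hist1h1e, Hist1h2ac and Hist1h2be, and by 2 in the others. In 8 windows the 30 nt occurred at no other place in the annotated transcripts, whereas the rest of the genome, to which the reads were aligned, was not searched here. The window of Hist2h2aa1 occurred at 19 other places, that of Hist2h2ac at 17 and those of Hist1h2bq and Hist1h2br at 7 each. The Hist1h2bq and Hist1h2br windows overlap in the same stretch of H2B, beginning at nt 37 and nt 34 (nt 1 is the first base of the start codon and nt 0 the base before it), and these genes have identical coding sequences. Hist3h2a lies within annotated transcripts of Trim17 on the same strand, and reads of both genes cannot be told apart there.

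The first question was how many histone genes carried a peak. With Flag-MBD5, 28 and 24 of the 67 genes had one (41.8% and 35.8%), and with Flag-MBD6, 21 and 28 (31.3% and 41.8%). Over all protein-coding genes, 10.2% and 9.92% had a peak with Flag-MBD5, and 16.2% and 16.6% with Flag-MBD6. The histone share exceeded that of all genes in all 4 libraries. Copies share reads, as given further on, so reads of 1 mRNA can give peaks on several of the genes counted here. Peaks in both libraries of a protein were found for 19 histone genes with Flag-MBD5 (28.4%, against 8.14% of all genes) and for 20 with Flag-MBD6 (29.9%, against 14.2%). In all, 15 genes had a peak in all 4 libraries (22.4%, against 7.82% of all genes) and 37 in any library (55.2%, against 19.5%). Peaks in both libraries of at least 1 protein were found for 24, and 30 genes had no peak.

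Histone genes are short, and most have no intron. The 1269 other protein-coding genes with 1 exon had a peak in 2.44% to 3.94% of cases per library, and in 2.21% (both Flag-MBD5) and 3.23% (both Flag-MBD6). RNA levels were not analysed here, so these counts do not separate the amount of a histone mRNA from its binding. When each library was cut to its best 5362 peaks, 28, 24, 14 and 14 histone genes had one, and both Flag-MBD6 libraries shared 12 of them. The share of all protein-coding genes at this cut was not counted, so these counts cannot be set against it. No histone gene had a peak on the opposite strand in any library.

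**Figure D1:**
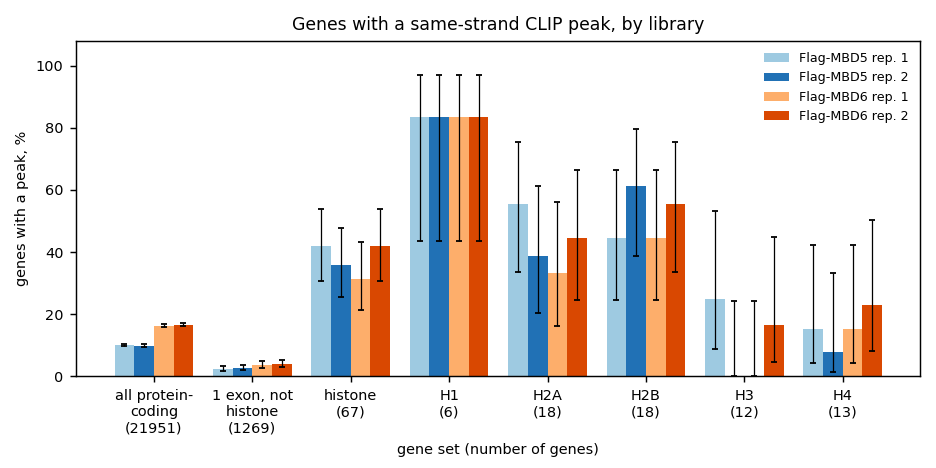
Share of genes with a same-strand peak (y axis, percent) for each gene set (x axis, number of genes in parentheses), with 1 bar per library and lines for the 95% Wilson interval. Histone genes as a whole lie between 31.3% and 41.8%, above all protein-coding genes and above other genes with 1 exon, and the H1 bars are the highest of the 5 families.

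The families differed in how many members carried peaks. In H1, 5 of 6 genes had a peak in all 4 libraries, and the only member without one was Hist1h1t, the testis H1. In H2A, 3 of 18 had a peak in all 4 libraries and 5 had none, and in H2B 7 of 18 had a peak in all 4 and 5 had none. In H3 no gene had a peak in both libraries of a protein, and 9 of 12 had none at all. In H4 no gene had one in all 4 libraries, 3 of 13 had one in both libraries of 1 protein, and 10 had none. Of all protein-coding genes, 19.5% had a peak in any library and 7.82% in all 4. With 3 of 12 genes in H3 and 3 of 13 in H4, the any-library shares were thus not below that of all genes. Families also differed in how much sequence their copies share, as given further on, and its part in these counts was not tested.

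Hist1h1a had the most reads of any histone peak. Its summit held 195, 202, 256 and 258 reads, which placed it at rank 18, 18, 20 and 21 among all peaks of each library by summit reads. Its fold enrichment was 26.4, 30.9, 47.4 and 31.9. Hist1h1b had 128, 116, 168 and 168 reads and a fold of 42.1, 29.5, 46.5 and 28.7. In both genes the reads were higher in each Flag-MBD6 library than in each Flag-MBD5 library before depth was taken into account.

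Hist1h1d followed with 136, 122, 156 and 169 reads and a fold of 20.7, 15.5, 27.4 and 20.7. Hist1h1c had 63, 60, 69 and 74 reads with a fold of 8.87, 7.44, 9.73 and 12.8. Hist1h1e had 53, 54, 58 and 57 reads with a fold of 9.55, 10.8, 13.5 and 13.1 at its downstream site. All 5 encode somatic forms of H1. By reads the order was Hist1h1a, then Hist1h1b and Hist1h1d, then Hist1h1c and Hist1h1e. Hist1h1b and Hist1h1d overlapped in both proteins, and Hist1h1c lay above Hist1h1e in each library.

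All 5 H1 mRNAs were covered at the same part of the coding sequence. The 20 peaks there had their summits between nt 483 and nt 547 from the start codon, or 74.0% to 82.5% of the way along a coding sequence of 636 to 669 nt. This stretch encodes the C-terminal tail of H1, which is rich in lysine and binds linker DNA. Hist1h1b and Hist1h1e each had another site upstream, whose 8 peaks had summits between nt 125 and nt 148. That site had 56, 66, 80 and 79 reads in Hist1h1b, and 54, 37, 47 and 40 in Hist1h1e at a fold of only 4.74, 2.71, 4.27 and 4.00. In Hist1h1a and Hist1h1d 1 peak spanned both stretches, with widths of 569 to 668 bp, so an upstream site there could not be separated. Because reads were extended to 150 nt, reads counted at a summit began anywhere in the stretch of that length before it.

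**Figure D2:**
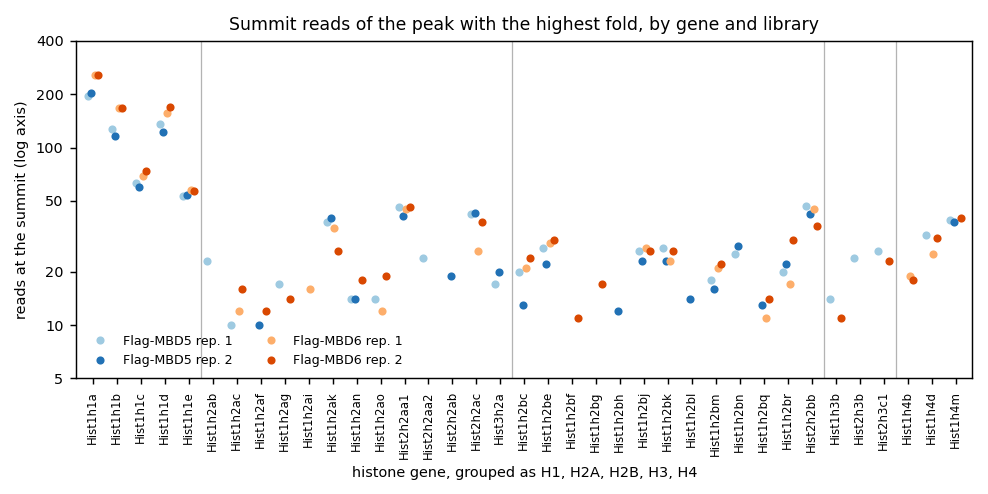
Reads at the summit (y axis, log axis) of the peak with the highest fold for each of the 37 histone genes with a peak (x axis, families separated by lines), with 1 point per library. The H1 genes lie between 53 and 258 reads, and all points of the core histones lie at 47 or below.

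The H2A genes with the highest fold were Hist1h2ak and Hist2h2ac. Hist1h2ak had 38, 40, 35 and 26 reads at a fold of 21.8, 15.3, 14.6 and 6.34, and Hist2h2ac had 42, 43, 26 and 38 reads at 15.9, 9.20, 9.30 and 11.1. Both had more reads in each of the shallower Flag-MBD5 libraries than in either Flag-MBD6 library. Hist2h2aa1 also had a peak in all 4 libraries, with 46, 41, 45 and 46 reads at a fold of only 4.97, 4.82, 4.67 and 4.13. Its copy Hist2h2aa2, with an identical coding sequence, had a peak in 1 library with 24 reads.

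The other H2A genes had fewer reads and more gaps. Hist1h2an had 14, 14 and 18 reads in 3 libraries, with no peak in Flag-MBD6 replicate 1. Hist1h2ac (10, 12 and 16 reads) and Hist1h2ao (14, 12 and 19 reads) lacked a peak in Flag-MBD5 replicate 2. Hist3h2a had a peak in both Flag-MBD5 libraries, with 17 and 20 reads at a fold of 8.16 and 10.4, and none in the Flag-MBD6 libraries. In the Flag-MBD5 libraries its 5′ end fell on the same base, nt 189, and its summit on nt 260. Hist1h2af (10 and 12 reads) and Hist1h2ag (17 and 14 reads) had a peak in 1 library of each protein, and Hist1h2ab, Hist1h2ai, Hist2h2aa2 and Hist2h2ab in 1 library in all.

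H2A peaks began at several places. Of 32 peaks, 14 had their 5′ end in the last of 3 equal parts of the coding sequence, 11 in the middle part, 3 in the first part, 3 in the 5′ UTR and 1 outside the annotated exons. The peaks of Hist1h2ac began at nt 376 in all 3 libraries, in a coding sequence of 390 nt without the stop codon. Their first 30 nt, printed above, hold the last 3 lysine codons, the stop codon and the start of the 3′ UTR. The peaks of Hist1h2an began at nt 340 or 341, apart from another of 12 reads at nt 0 in Flag-MBD6 replicate 2, and those of Hist1h2ao at nt 346 to 358. The stretches near the stop codon encode part of the C-terminal tail of H2A. Start zones, the widths within which the reads of a peak began, were at most 20 nt in 14 H2A peaks.

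Among H2B genes, 7 had a peak in all 4 libraries, namely Hist1h2bc, Hist1h2be, Hist1h2bj, Hist1h2bk, Hist1h2bm, Hist1h2br and Hist2h2bb. Hist1h2bk had 27, 23, 23 and 26 reads at a fold of 19.97, 15.9, 12.1 and 16.0. Hist1h2be had 27, 22, 29 and 30 reads, Hist1h2bc 20, 13, 21 and 24, Hist1h2bj 26, 23, 27 and 26, and Hist1h2bm 18, 16, 21 and 22. Hist1h2br had 20, 22, 17 and 30 reads. In Hist1h2bk and Hist1h2bj the reads of the proteins overlapped or touched although the Flag-MBD6 libraries were deeper, whereas Hist1h2bc and Hist1h2br varied more between the libraries of 1 protein. The H2B gene with the most reads was Hist2h2bb, with 47, 42, 45 and 36 reads at a fold of 6.82, 5.79, 15.5 and 17.2.

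H2B peaks mostly began near the start of the mRNA. Of 37 peaks, 24 began in the first of these parts of the coding sequence, 7 in the 5′ UTR and 4 outside the annotated exons, while 2 began in the middle part and none in the last part. The median 5′ end was at nt 23, and the median summit at nt 106. The windows of Hist1h2bc and Hist1h2be printed above begin at nt -9 and nt -7 and include the start codon. This part encodes the N-terminal tail of H2B, rich in lysine: of the codons in the first 30 nt of coding H2B peaks, 34.0%, 30.0%, 38.0% and 35.7% were lysine codons in the 4 libraries, against 15.8% over whole H2B coding sequences. These shares rest on the coding ones among 7, 10, 7 and 9 H2B peaks that began within transcripts. Many of the windows lie in the same stretch shared by copies, so similar sequence is counted more than once.

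Hist2h2bb and Hist1h2bn departed from this place. The 4 peaks of Hist2h2bb began at nt -19 or nt -20, upstream of the annotated gene, which is modelled without UTRs. Their summit was at nt 268 in both Flag-MBD5 libraries, and at nt 128 and nt 76 in the Flag-MBD6 libraries. Hist1h2bn had a peak in both Flag-MBD5 libraries alone, with 25 and 28 reads at a fold of 4.79 and 4.72, and its summits lay at the end of the gene. Its peaks in the Flag-MBD5 libraries began at nt 56 and nt 248. The remaining H2B peaks were in Hist1h2bq, with 13, 11 and 14 reads in 3 libraries, and in Hist1h2bf, Hist1h2bg, Hist1h2bh and Hist1h2bl, each in 1 library with 11 to 17 reads.

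**Figure D3:**
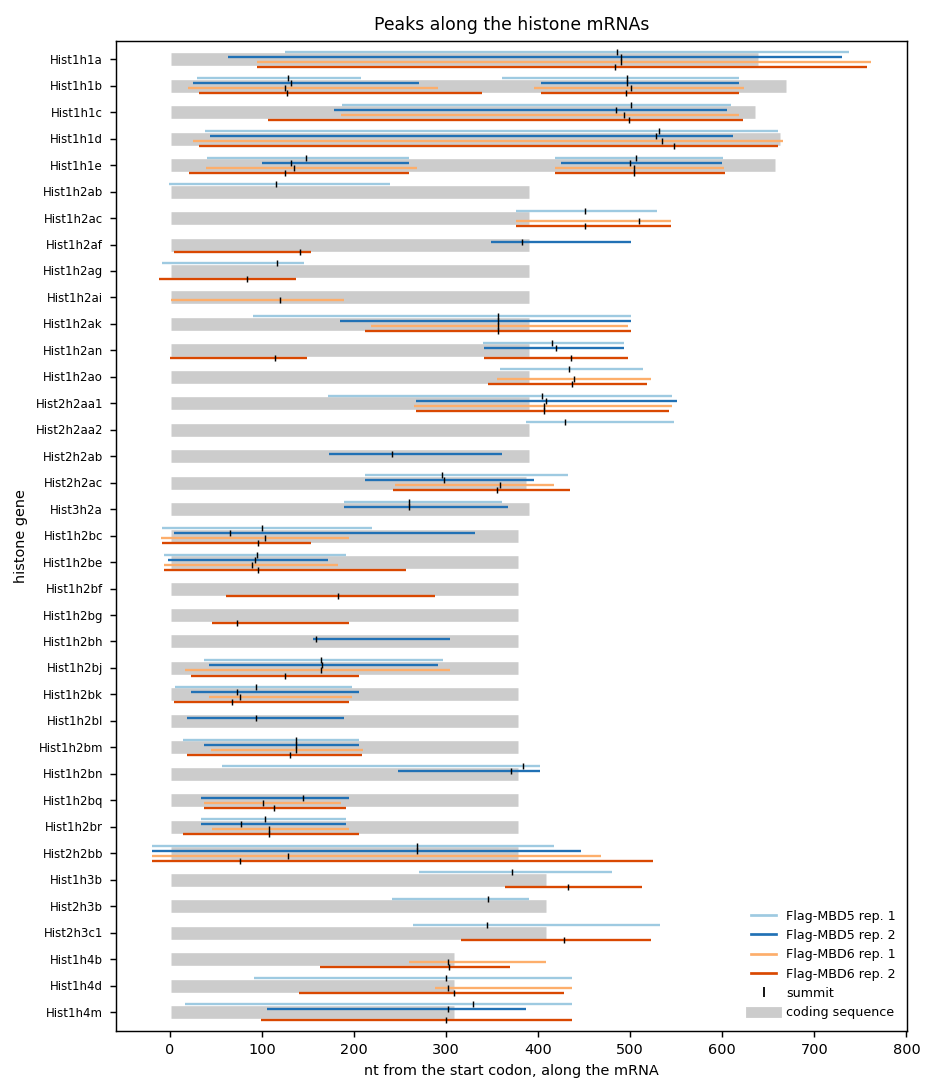
Extent of each peak along the mRNA (x axis, nt from the start codon) for the 37 histone genes with a peak (y axis), coloured by library, over the coding sequence in grey and with summits as black ticks. The 20 downstream H1 summits stand between nt 483 and nt 547, most H2B peaks begin near the start codon, and most H2A peaks of Hist1h2ac, Hist1h2an and Hist1h2ao begin near the stop codon.

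H3 and H4, the most conserved histones, had fewer genes with a peak than H1, H2A or H2B. Per library, 15.4%, 7.69%, 15.4% and 23.1% of H4 genes had one, against 10.2%, 9.92%, 16.2% and 16.6% of all protein-coding genes. In H3, 3, 0, 0 and 2 of 12 genes had one. The H3 peaks were in Hist1h3b (14 and 11 reads), Hist2h3c1 (26 and 23 reads) and Hist2h3b (24 reads), and the 2 genes first named had them in 1 library of each protein. H3 fold enrichments were between 4.46 and 7.08. The H4 peaks were in Hist1h4m (39, 38 and 40 reads in 3 libraries), Hist1h4d (32, 25 and 31 reads in 3) and Hist1h4b (19 and 18 reads in both Flag-MBD6 libraries alone). H4 fold enrichments were between 3.74 and 5.96. All 8 H4 summits lay between nt 300 and nt 329, at the end of a coding sequence of 309 nt, and the 5 H3 summits between nt 344 and nt 432.

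Over all families, 95 of 110 pairs of a peak and a histone gene had the 5′ end in the coding sequence (86.4%, 95% Wilson interval 78.7% to 91.6%), 10 in the 5′ UTR and none in the 3′ UTR. The remaining 5 began outside the annotated exons. The same places are counted again in several libraries, so the pairs are not independent and the interval is too narrow. Of peaks that began within transcripts, 86.2%, 96.0%, 90.9% and 89.7% of the histone peaks and 95.5% to 95.8% of all peaks began in the coding sequence. The histone stem-loop motif, searched on the transcript strand alone, was found in 46 of the 67 genes and in 54 of all 21951 protein-coding genes (0.246%). Of the 67 gene models, 15 had no 3′ UTR. In the 67 pairs where the distance could be measured, the last read start of a peak lay 31 to 590 nt before the stem-loop. The peaks of these genes thus began upstream of it in every case, whereas reads that started there could still run into it. Because the mRNAs end in this motif and the authors discarded short reads, reads starting within it could be too short to be kept.

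The bases at the 5′ ends of histone peaks were set beside those of peaks in general, without a test. A G stood before the 5′ end in 55.2%, 72.0%, 63.6% and 69.0% of histone peaks in the 4 libraries, against 83.3%, 82.8%, 74.0% and 73.2% of all peaks in protein-coding transcripts. These shares rest on 29, 25, 22 and 29 histone peaks, and the gap was small in Flag-MBD6 replicate 2. The first 30 nt held 26.3%, 27.2%, 28.9% and 24.3% A in histone peaks, against 37.3%, 37.8%, 38.6% and 38.5% overall. They held 30.2% to 34.8% C, against 20.3% to 22.0%, while whole histone coding sequences held 28.9% to 36.4% C by family. Histone coding sequences are themselves poor in A, with 18.7% in H3, 19.8% in H2A, 20.4% in H4, 24.3% in H2B and 27.99% in H1. Lysine codons made up 19.2% to 23.5% of the codons in the first 30 nt of histone peaks, against 12.1% to 12.7% for all peaks. In whole coding sequences they made up 26.5% of the codons in H1, 15.8% in H2B, 10.7% in H4, 10.0% in H2A and 9.56% in H3.

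Copies of a gene share reads, and the amount of shared sequence was measured as runs of 30 nt in the coding sequences that occur at other places in annotated transcripts. The aligner kept reads with up to 10 equally good places and reported 1 place, so reads of copies are spread over them and reads with more places are lost. In H1, 83.1% of the runs were at 1 place only and none was at more than 10. The share of runs at 1 place was 20.5% in H2A, 24.6% in H2B, 9.72% in H3 and 31.0% in H4. The share at more than 10 places was 50.9% in H2A, 45.1% in H2B, 17.3% in H3 and 16.3% in H4. A read of 30 nt with a perfect match to such a run would not have been reported.

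Members with little sequence of their own still had peaks. Of 13 members without any run of their own, 9 had a peak in a library, as did 20 of 40 members with up to 50% of their runs at 1 place, and 8 of 14 members with more. The 13 include all 5 pairs with identical coding sequences, which are Hist1h2ao with Hist1h2ap, Hist2h2aa1 with Hist2h2aa2, Hist1h2bq with Hist1h2br, Hist2h3c1 with Hist2h3c2 and Hist1h4m with Hist1h4n. In 3 of the pairs only the copy named first had a peak. Of the 105 histone peaks with a window inside the transcript, 51 began with 30 nt of their own, 45 with 30 nt found at 2 to 10 places and 9 with 30 nt found at more. For H2B, 8 of 33 began with sequence of their own. A peak on a core histone gene is thus best read as a peak on 1 or more copies, and the gene named is the place the aligner reported.

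**Figure D4:**
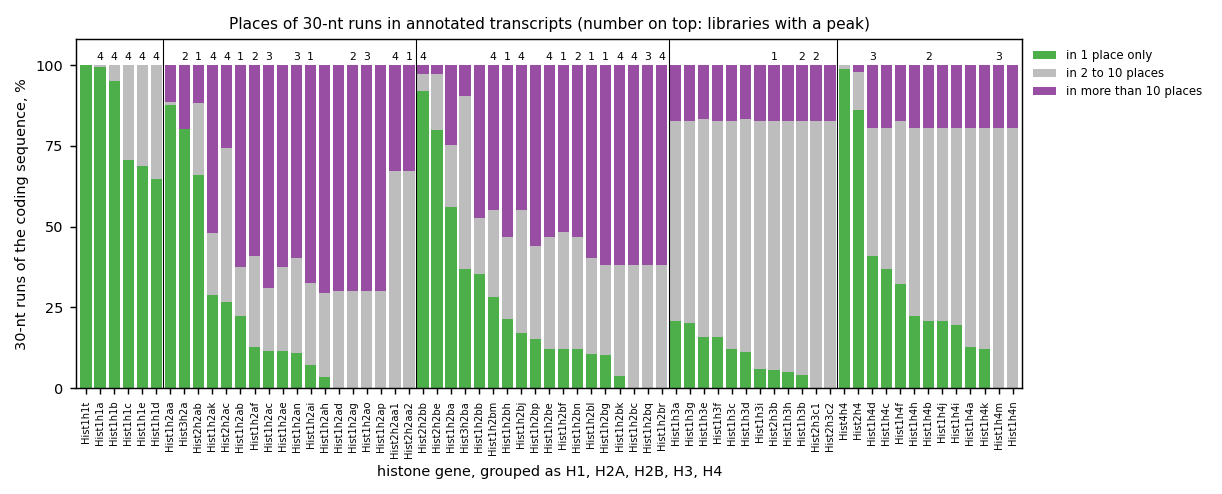
Share of the 30-nt runs of each histone coding sequence (y axis, percent) found at 1 place, at 2 to 10 places or at more than 10 places of the annotated transcripts, for all 67 genes (x axis, by family). The numbers on top give the libraries with a peak, from 1 to 4, and the H1 genes hold between 64.8% and 100% of their runs at 1 place.

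The next question was whether histone peaks differed between the proteins in strength. At each of 3566 sites found in all 4 libraries, the summit reads of both Flag-MBD6 libraries were set against those of both Flag-MBD5 libraries by an exact two-sided binomial test, with p-values adjusted by Benjamini-Hochberg over all sites. Equal binding was taken as the ratio of read totals, 2.14. This test compares the libraries and not the conditions. The summit of each library was used, so within a site the summits could lie at different positions. Of all sites, 2.94% were higher in Flag-MBD6 and 27.6% were higher in Flag-MBD5. Of 17 histone sites, none was higher in Flag-MBD6 and 15 were higher in Flag-MBD5, while Hist1h2bm and Hist1h2bc passed in neither direction. A site needed a peak in both of the shallower Flag-MBD5 libraries to be compared. Sites with few Flag-MBD5 reads were thus left out, among them Hist1h4b, which had peaks with Flag-MBD6 alone. The counts in each direction therefore hold for the compared sites only, and the part of this selection was not tested.

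The ratio of Flag-MBD6 to Flag-MBD5 reads per read total had a median of 0.523 over the histone sites, against 0.792 over all sites. All 7 H1 sites were higher in Flag-MBD5. For Hist1h1a the ratio was 0.605 (95% interval 0.530 to 0.691, exact binomial test, adjusted p = 1.00e-11), and for Hist1h1d it was 0.588 (0.498 to 0.696, exact adjusted p = 1.55e-08). For the downstream site of Hist1h1b it was 0.643 (0.544 to 0.762), for Hist1h1c 0.543 (0.424 to 0.697) and for the downstream site of Hist1h1e 0.502 (0.382 to 0.659). The upstream sites had ratios of 0.609 in Hist1h1b and 0.447 in Hist1h1e. The lowest ratios of the 17 were those of the H2A genes Hist2h2ac, at 0.352 (0.250 to 0.492, exact adjusted p = 1.15e-08), and Hist1h2ak, at 0.365 (0.257 to 0.517). The Hist2h2ac summits lay at nt 295 and nt 298 in Flag-MBD5 but at nt 358 and nt 355 in Flag-MBD6. The Hist2h2ac ratio thus compares reads at different positions. Hist2h2aa1 stood at 0.489 (0.360 to 0.663).

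Among the 7 H2B sites 5 were higher in Flag-MBD5. Their ratios ran from 0.425 in Hist2h2bb (0.311 to 0.581, exact adjusted p = 7.88e-07) to 0.562 in Hist1h2be (0.379 to 0.839, exact adjusted p = 0.0156). The Hist2h2bb ratio also compares different positions, with summits at nt 268 in Flag-MBD5 and at nt 128 and nt 76 in Flag-MBD6. Hist1h2bm had a ratio of 0.591 (0.368 to 0.955, exact adjusted p = 0.0773) and Hist1h2bc of 0.637 (0.398 to 1.03, exact adjusted p = 0.129). Hist1h2bk, Hist1h2bj, Hist1h2br and Hist1h2be each lost the call when some single library was left out. The families were not tested against each other. At 15 histone sites with a mean of 20 reads or more, chi-square per site was 0.677 and 1.01 within the proteins and 9.88 to 19.2 between them.

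**Figure D5:**
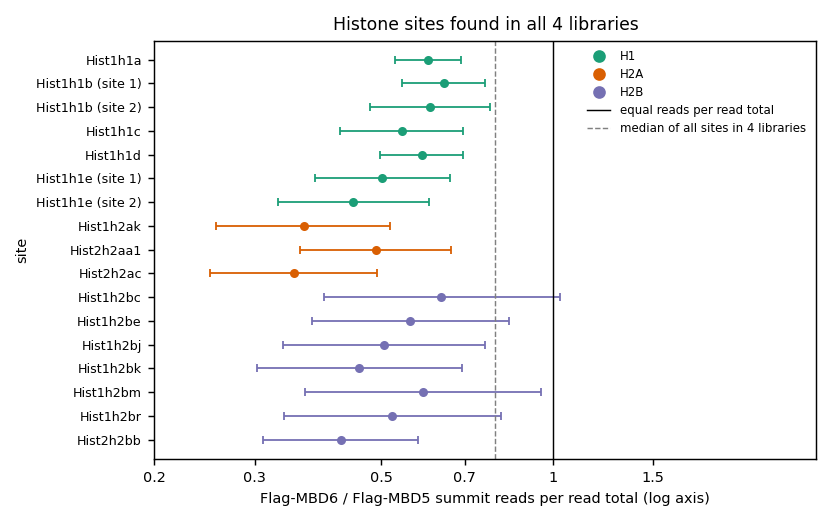
Ratio of Flag-MBD6 to Flag-MBD5 summit reads per read total (x axis, log axis) at the 17 histone sites found in all 4 libraries (y axis), with 95% exact binomial intervals. All 17 points lie left of the line of equal reads, between 0.352 and 0.643, and the dashed line marks the median of all sites, 0.792.

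The size of this difference depended on how depth was set. When equal binding was taken as the median ratio of all sites, 9.45% of all sites were higher in Flag-MBD6 and 10.9% in Flag-MBD5, and of the histone sites 10 of 17 were higher in Flag-MBD5 and none in Flag-MBD6. These were 5 of 7 in H1, 3 of 3 in H2A and 2 of 7 in H2B. Identical reads had been collapsed and at most 5 reads per position kept before the peaks were called. The median ratio of all sites was 0.757 at sites with a mean under 20 summit reads, 0.862 at 20 to 40, 0.781 at 40 to 80 and 0.658 at 80 or more. At the 1412 sites with a raised background in all 4 libraries it was 0.698, and 643 of them were higher in Flag-MBD5. The part of depth and background in the histone ratios was not tested.

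Histone peaks stood on a high local background. The background rate was above the lowest rate of the library at 93.3%, 92.3%, 78.3% and 74.2% of histone peaks, against 60.4%, 61.5%, 40.3% and 42.2% of all peaks. Their summits held a median of 26.5, 25.5, 27 and 26 reads, against 16, 16, 20 and 21. The median fold enrichment of histone peaks was 9.11, 9.50, 11.2 and 10.6, against 10.4, 10.5, 10.9 and 11.1 overall. More reads at the summit and a higher background thus gave a fold much like that of other peaks. The H1 peaks all stood on a raised background in all 4 libraries.

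Genes whose products work with histones were looked up beside them, and their counts stand against 10.2%, 9.92%, 16.2% and 16.6% of all protein-coding genes with a peak in the 4 libraries. The replacement histones are made outside DNA replication from ordinary polyadenylated mRNAs. Of 13 such genes, 1, 1, 4 and 5 had a peak, and 6 had none. In the Flag-MBD5 libraries this is near the share of all genes. H2afz, which encodes H2A.Z, was the only one found in all 4, with 18, 26, 42 and 38 reads at a fold of 10.5, 9.95, 19.7 and 13.9. H2afj had a peak in both Flag-MBD6 libraries, with 24 and 19 reads, and none in the Flag-MBD5 libraries. H3f3a and H2afx had no peak.

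Of 19 genes for the expression and 3′ processing of histone mRNAs, 5, 6, 11 and 10 had a peak. Those found in all 4 libraries were Casp8ap2 (a factor of histone locus bodies), Cpsf2, Cpsf3 and Sympk (subunits of the cleavage complex) and Srrt (a partner of the cap-binding complex). Slbp, which binds the stem-loop, had a peak in 1 library. Of 20 histone chaperones and importers, 13, 13, 17 and 19 had a peak, and Asf1b alone had none. The 12 found in all 4 libraries were Nasp, Chaf1b, Hat1, Rbbp4, Npm1, Nap1l1, Ssrp1, Supt16, Daxx, Atrx, Anp32e and Set. Set had 74, 61, 125 and 118 reads at a fold of 54.3, 44.5, 64.8 and 57.8, and Atrx 52, 57, 130 and 129 reads at 42.3, 45.8, 86.0 and 62.3.

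The sites of these genes were compared in the same way. Of 35 chaperone sites found in all 4 libraries, 4 were higher in Flag-MBD6 and 6 in Flag-MBD5, with a median ratio of 0.887. Of 10 sites in the 3′ processing genes, 1 was higher in Flag-MBD5 and none in Flag-MBD6, with a median ratio of 0.955. The list site with the highest ratio was in Nasp, the chaperone of H1 and H3-H4, with 18, 13, 75 and 68 reads (ratio 2.15, 1.45 to 3.29, exact adjusted p = 3.80e-04). The site of H2afz had a ratio of 0.849 (0.581 to 1.26, exact adjusted p = 0.558). These values stand beside the histone ratios as a description, and the difference between the gene lists was not tested.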

How the data were processed

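CLIP-seq peaks of 4 libraries of mESCs were analysed. Per the methods and processing notes, the authors clipped reads, collapsed identical ones, removed rRNA, aligned to mm10 with Bowtie 1.0.0 (3 mismatches, at most 10 places, 1 reported), split strands with SAMtools 1.16.1 and called peaks per library with MACS2 (extension 150 nt, genome size 130000000, up to 5 reads per position, q under 0.01). The deposited values are a score per peak, the fold enrichment as a ratio, and −log10 p and −log10 q. Which control was used is not given in the sources used here. Background rates lay below the library's own in 7.25% to 13.7% of peaks.

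Summit reads and background rates were solved as the whole number and Poisson rate that give the deposited fold and p (100% of peaks solved), and read totals came from the lowest rates. Solving and ratio test were tested on simulated data. Peaks were merged across libraries into sites and matched to GENCODE M21 genes and transcripts (same build) in Python 3.11.15 with scipy 1.17.1. Runs held by overlapping genes at 1 genomic place were counted once. Named genes were up to 6 per family by mean fold among those with a peak in both libraries of a protein, those of 1 protein only, and list genes found in all 4 libraries. Other genes named were chosen after their values were seen. The members and lists were chosen with earlier results of these data known. The listed symbol Zcchc11 was not matched. Alternatives covered thresholds, overlap rules, scaling, windows, run lengths and each library.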

Additional observations from a re-analysis of the deposited data

How the results depend on the processing

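Libraries of 1 protein differ by less than sampling noise, so stability across them says little about other cultures, and core histone copies share reads. Without 1 library, histone genes counted in the remaining library of Flag-MBD5 were 24 to 28 and of Flag-MBD6 21 to 28. The median ratio of the 17 histone sites ranged from 0.499 to 0.561 and the sites higher in Flag-MBD5 from 11 to 14. A fit with the replicate number as a block gave a median ratio of 0.507, scaling to the median of all sites 0.660. With equal numbers of peaks, Flag-MBD6 replicate 1 fell from 21 to 14 histone genes and replicate 2 from 28 to 14. Both Flag-MBD6 libraries shared 12, since fewer of their peaks were used. On the opposite strand all 6 counts were 0. The first 50 nt held 28.5% A. With runs of 20 and 40 nt, the share at 1 place was 77.4% and 85.6% in H1, 17.4% and 23.3% in H2A, 19.6% and 29% in H2B, 6.19% and 12.4% in H3, 24.5% and 35.7% in H4, and 25.9% and 34.0% over all members. Counting any Flag-MBD6 library gave 7 replacement histone genes. At single histone sites no ratio turned direction, and 105 kept their side of the threshold, but 13 no longer passed, namely 5 with median scaling (both Hist1h1b sites, Hist1h2br, Hist1h2bj and Hist1h2be) and 8 without 1 library. Those were Hist1h2br, Hist1h2bk, Hist1h2bj and Hist1h2be without Flag-MBD5 replicate 1, Hist1h2br without Flag-MBD5 replicate 2 or Flag-MBD6 replicate 1, and Hist1h2bj and Hist1h2be without Flag-MBD6 replicate 2. The other 107 summary values run under an alternative moved by less than their spread or by at most 1.5 times. The fall of Flag-MBD6 replicate 1 from 21 to 14 genes is among these 107.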

Other observations

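Besides the protein-coding members, 3 histone pseudogenes are annotated under the same symbols. Hist1h2al, a processed pseudogene of H2A on chr13:51202727-51203065, had a peak in both Flag-MBD5 libraries, with 14 and 18 reads at a fold of 8.22 and 7.09, and none in the Flag-MBD6 libraries. Hist1h2aj and Hist3h2bb-ps had none. The first 30 nt of several H2A peaks also occur in Hist1h2al, and the part of shared reads was not tested.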
